A study of Mus musculus with 24 samples.

Results

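The genes that cells use to answer a shortage of oxygen were followed in the hippocampus of neonatal mice after repeated apnea. The 10 genes were Hif1a, Epas1, Vegfa, Adm, Pdk1, Ldha, Bnip3, Egln3, Pgk1 and Epo, out of 36163 gene names on the array. They were taken by name, with every non-control probeset that carried the name, which gave 19 of 55681 probesets. Hippocampal mRNA came from 15 male C57BL/6 mice at postnatal day (P) 9, 5 in each of 3 groups, with 1 animal per array. Untreated controls (Con) received no morphine, stayed in normal housing and were handled little. From P5, MS2 pups received morphine at 2 mg/kg and MS5 pups received 5 mg/kg, and both groups also underwent stress by separation from the dam and isolation. Each treated pup was in addition exposed to apnea in the morning and in the afternoon, as 1 min of 100% N2 followed by 5 min of 100% O2. Apnea was therefore common to MS2 and MS5 and absent from Con, and in these comparisons apnea, separation and morphine cannot be told apart. No group received apnea alone. The time between the last apnea and tissue collection on P9 is not given in the sources used here.

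In well-oxygenated cells the HIF alpha subunits Hif1a and Epas1 (HIF-2 alpha) are hydroxylated by prolyl hydroxylases such as Egln3, bound by Vhl and degraded. When oxygen falls they persist, pair with Arnt and turn on genes for blood vessel growth, glycolysis, mitochondrial turnover and red cell production. This control acts mainly on the HIF alpha proteins, which mRNA arrays do not measure, and a transcript can return to its resting level after oxygen is restored.

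HIF binds DNA at a short core, which was searched for near the start of each member. The members were chosen as known hypoxia response genes, so the presence of this core is tied to that choice and is no test. RefSeq promoter windows on GRCm38.p6, from 250 bases before to 50 bases after each annotated start, were available for 9 members and not used for Epas1. The letters ACGTG or GCGTG were searched on both strands, and overlapping matches were kept. At least 1 of the 2 cores was found for all 9 members with a window, compared with 46.7% of 27025 genes. ACGTG was found in windows of 6 members and 21.8% of genes, and GCGTG in windows of 6 members and 35.2% of genes. A match of 5 letters is a description of the window and says nothing of binding. The match nearest the start is shown for each member, ACGTG where there was one and otherwise GCGTG, as a stretch lying before the start and read 5′ to 3′ on the strand of the gene. Capitals mark every complete core or its reverse complement within the stretch.
Hif1a, chr12:73907785-73907813 (+): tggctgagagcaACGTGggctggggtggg
Egln3, chr12:54204087-54204115 (-): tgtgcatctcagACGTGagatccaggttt
Vegfa, chr17:46025358-46025386 (-): ggagtGCGTGccCACGTcagagagcaaca
Adm, chr7:110627591-110627619 (+): ggcaaatctgacCACGCccaccgtccgcc
Epo, chr5:137486004-137486032 (-): cccccacccgcgCACGCacacatgctgat
Ldha, chr7:46845758-46845786 (+): cgtgggttcccgCACGTccgctgggctcc
Pgk1, chrX:106186957-106186985 (+): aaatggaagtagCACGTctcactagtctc
Pdk1, chr2:71873134-71873162 (+): ccgcctacatggGCGTGtctttaaccagg
Bnip3, chr7:138909597-138909625 (-): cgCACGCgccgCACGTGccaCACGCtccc

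Before any result, 3 of the 15 arrays need to be named, and values without them are given beside the results that they move. MS2 replicate 4 did not carry the profile of hippocampal tissue. The summed level of 7 hippocampal neuron markers, such as Prox1 and Neurod6, was 14.09 on the log2 scale on this array and 16.01 to 16.48 on the other 14. Its sum over 7 markers of hypothalamus and thalamus, which include Hcrt and Pmch, was 14.52, against 10.84 to 13.25 elsewhere. MS2 replicate 5 was dim, with a median spot signal of 58.2 and 67.1% of spots well above background, where the other arrays had 121 to 154 and 72.5% to 79.0%. MS5 replicate 9 came from a pup labelled male but read 11.34 for Xist, which is transcribed from the inactive X chromosome, while all other arrays were between 5.89 and 6.08. Separately, all 12 choroid plexus markers were well above background on every array. Their summed level was 18.04 to 18.65 in Con, 18.14 to 18.50 in MS2 and 14.19 to 18.33 in MS5, lowest on MS5 replicates 14 and 9. The hypothalamus and thalamus sum was also 13.04 to 13.25 on 3 of 5 MS5 arrays and at most 11.72 in Con. In dissected tissue, fewer cells of a type and less RNA per cell cannot be told apart.

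**Figure D1:**
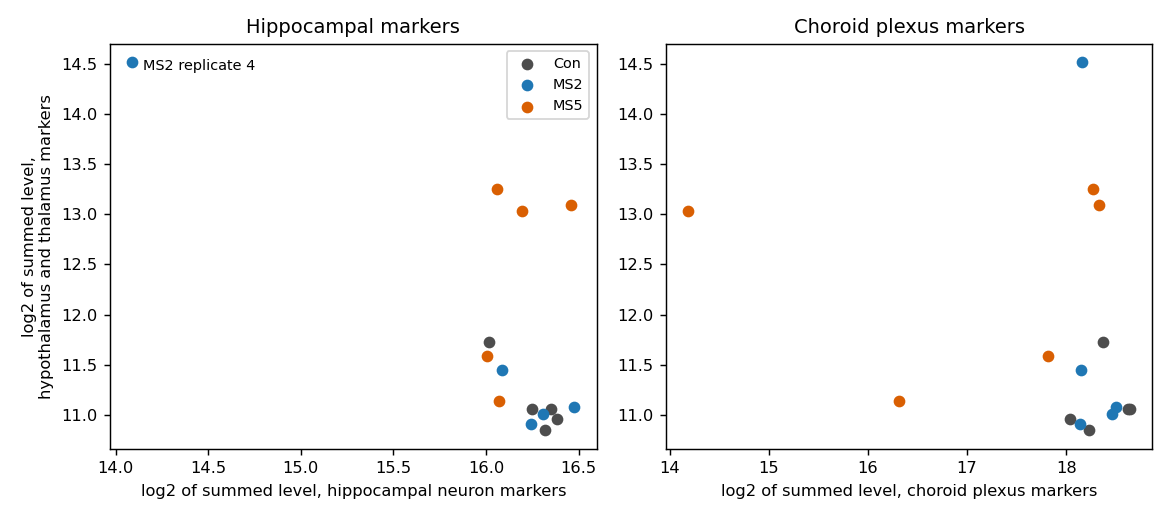
Each point is 1 array, with the log2 of the summed level of hypothalamus and thalamus markers on the vertical axis and of hippocampal neuron markers (left) or choroid plexus markers (right) on the horizontal axis, in Con, MS2 and MS5. MS2 replicate 4 lies alone at 14.09 for the hippocampal sum, and 1 MS5 array has a choroid plexus sum of 14.19.

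Over the members as a whole, neither treated group differed from controls beyond the spread between arrays. Of the 10 genes, 9 were well above background on all 15 arrays and are given differences below, and Epo was above background on none. Each gene is represented by a lead probeset, which is the brightest on average among those with a curated RefSeq identifier. With MS2 and MS5 combined against Con, 0 of the 10 lead probesets had an unadjusted p under 0.05 by limma, where 4.13% of all probesets did. The count was also 0 for MS2 against Con, with 4.17% of all probesets, and for MS5 against Con, with 3.9%. For MS5 against MS2 it was 0 as well, with 3.97% of all probesets. After Benjamini-Hochberg adjustment over 55681 probesets, limma called 0% of all probesets in each of the 4 comparisons. The smallest adjusted p of any probeset by limma was 0.988 for both doses together, 0.970 for MS2, 0.635 for MS5 and 1.00 for MS5 against MS2. No lead probeset separated a treated group from Con without overlap, which 0.0413%, 0.702% and 0.828% of all probesets did for both doses together, MS2 and MS5.

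The intervals limit how large a lasting change in mRNA could have been. For all 9 measured genes the 95% interval of the difference lay inside 1.5-fold in either direction, for both doses together, MS2 and MS5. That held for 96.4%, 95.2% and 95.3% of all probesets, so it is not particular to these genes. The median difference of the 10 lead probesets was -0.01 for both doses together, 0.01 for MS2 and -0.04 for MS5 on the log2 scale, and the median over all probesets was within 0.01 of 0 in each. With both doses together, 4 of the 9 measured genes had values above Con and 5 below.

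**Figure D2:**
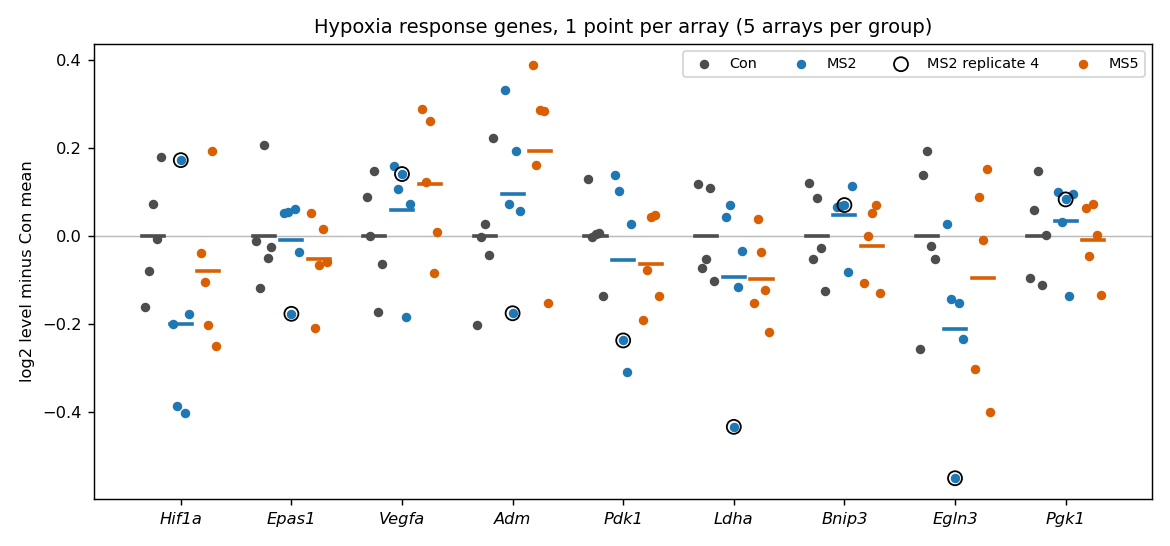
For the lead probeset of each of the 9 measured genes, every point is 1 array as its log2 level minus the Con mean, with short bars at the group means and MS2 replicate 4 ringed. The 3 groups overlap for every gene, and MS2 replicate 4 is the lowest array for Ldha and Egln3.

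**Figure D3:**
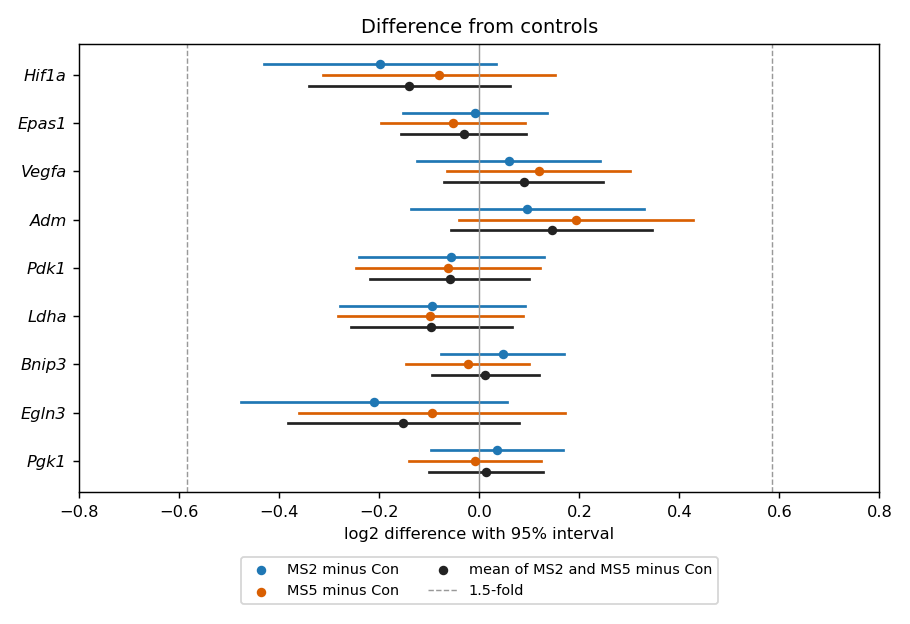
Points are limma log2 differences from Con for MS2, MS5 and the mean of both, bars are 95% intervals and dashed lines mark 1.5-fold, which is 0.58 on the log2 scale. Every bar crosses 0 and stays inside the dashed lines.

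Hif1a, the oxygen-regulated subunit of HIF-1, had lower values in both treated groups at its lead probeset (A_51_P387608), within the spread. The log2 levels were 11.35, 11.43, 11.58, 11.50 and 11.69 in Con. In MS2 they were 11.31, 11.12, 11.68, 11.11 and 11.33, and in MS5 11.47, 11.41, 11.31, 11.70 and 11.26. Of the MS2 arrays 4 lay below the lowest Con array, and the remaining one was replicate 4, near the top of the Con range. The difference from Con was -0.20 in MS2 (95% interval -0.43 to 0.03, limma unadjusted p = 0.0868, adjusted p = 0.970, two-sided exact permutation p = 0.135) and -0.08 in MS5 (-0.31 to 0.15). Without MS2 replicate 4, the array low in hippocampal markers, the MS2 difference was -0.29 (-0.49 to -0.10, limma adjusted p = 1.00). In that fit Hif1a was the 1 lead probeset with an unadjusted p under 0.05, as were 4.00% of all probesets. The same fit gave -0.19 for both doses together (-0.35 to -0.02), and 0.21 for MS5 against MS2 (0.02 to 0.41).

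The other probeset of Hif1a did not follow. A_55_P2149011, designed to a cDNA clone, is placed at chr12:75033965-75034024 of mm9, upstream of the lead probeset at chr12:75047269-75047329 and on the same strand, and its values went the opposite way. It read 6.98, 6.83, 6.89, 6.75 and 6.63 in Con, 7.15, 7.01, 7.02, 6.65 and 6.98 in MS2, and 6.87, 6.99, 6.84, 6.91 and 6.76 in MS5. Its difference from Con was 0.15 in MS2 (-0.03 to 0.33) and 0.06 in MS5 (-0.12 to 0.24). With all 3 arrays named above left out, the MS2 difference was 0.23 here (0.07 to 0.40) and -0.26 at the lead probeset (-0.48 to -0.03), with limma adjusted p = 0.788 and adjusted p = 0.800. The probesets of Hif1a thus had opposite signs. Within slides, the lead probeset in MS5 was 0.11 above Con on 1 slide and -0.23 on the other.

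Epas1, the alpha subunit of HIF-2 and abundant in vessels and astrocytes, varied little. The lead probeset (A_51_P250058) read 14.87, 14.76, 15.08, 14.83 and 14.85 in Con. In MS2 it read 14.93, 14.93, 14.70, 14.94 and 14.84, and in MS5 14.93, 14.67, 14.81, 14.89 and 14.82. All groups covered the same range, with differences of -0.01 in MS2 (-0.15 to 0.13) and -0.05 in MS5 (-0.20 to 0.09). The other 2 Epas1 probesets differed from Con by 0.00 and -0.02 in MS2 and by 0.07 and -0.07 in MS5.

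Egln3, the prolyl hydroxylase that marks HIF alpha for destruction and is itself a HIF target, was lower on average in MS2 at both probesets. The lead probeset (A_52_P387009) read 8.41, 8.81, 8.86, 8.65 and 8.62 in Con, 8.70, 8.53, 8.12, 8.52 and 8.44 in MS2, and 8.37, 8.76, 8.66, 8.82 and 8.27 in MS5. The groups overlapped, and MS2 replicate 4 was the lowest of all 15 arrays. The MS2 difference was -0.21 (-0.48 to 0.06, two-sided exact permutation p = 0.119) and the MS5 difference -0.09 (-0.36 to 0.17). Leaving out MS2 replicate 4 brought the MS2 difference to -0.13 (-0.38 to 0.12), and leaving out Con replicate 15 to -0.27, with an unadjusted limma p under 0.05. The other probeset gave -0.20 in MS2 (-0.41 to 0.00, limma unadjusted p = 0.0514, adjusted p = 0.970, two-sided exact permutation p = 0.0397). It was -0.15 without MS2 replicate 4 (-0.35 to 0.05) and -0.12 without all 3 arrays (-0.35 to 0.12).

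Vegfa, the growth factor that recruits new vessels toward tissue short of oxygen, had higher values at both probesets. The lead probeset (A_52_P638895) read 12.03, 11.95, 12.09, 11.77 and 11.88 in Con, 12.10, 12.05, 12.09, 11.76 and 12.02 in MS2, and 12.23, 12.07, 12.21, 11.86 and 11.95 in MS5. Those values overlapped throughout, and the differences were 0.06 in MS2 (-0.13 to 0.24) and 0.12 in MS5 (-0.06 to 0.30). The other probeset, A_52_P249424, was 1 of only 2 member probesets with an unadjusted p under 0.05 in any comparison. It read 8.71, 8.53, 8.53, 8.46 and 8.48 in Con, 8.81, 8.91, 8.70, 8.54 and 8.68 in MS2, and 8.86, 8.60, 8.78, 8.46 and 8.60 in MS5. All MS2 arrays were above 4 of the 5 Con arrays, and Con replicate 15 overlapped them. The MS2 difference was 0.19 (0.01 to 0.36, a 1.14-fold ratio, limma unadjusted p = 0.0380, adjusted p = 0.970, two-sided exact permutation p = 0.0476). For both doses together it was 0.15 (0.00 to 0.30, limma unadjusted p = 0.0474, adjusted p = 0.988, two-sided exact permutation p = 0.0559). Without MS2 replicate 4 the MS2 difference was the same at 0.19, and without all 3 arrays it was 0.26 (0.06 to 0.46, limma adjusted p = 0.794). The difference in MS5 was 0.12 (-0.05 to 0.29).

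Adm encodes adrenomedullin, a vasodilator peptide. Its single probeset (A_51_P265571) read 7.40, 7.60, 7.63, 7.56 and 7.82 in Con, 7.93, 7.67, 7.42, 7.79 and 7.66 in MS2, and 7.99, 7.76, 7.88, 7.88 and 7.45 in MS5. In MS5, 3 of 5 arrays exceeded every Con array and 1 array, replicate 14, was below 4 of them. The difference was 0.10 in MS2 (-0.14 to 0.33) and 0.19 in MS5 (-0.04 to 0.43, two-sided exact permutation p = 0.143). It reached 0.28 in MS5 without replicate 14, the array with the lowest choroid plexus sum, and 0.25 without Con replicate 19, in both cases with an unadjusted limma p under 0.05. The MS5 value also differed more between slides for Adm than for any other member probeset, at 0.41 above Con on slide 1 and -0.01 on slide 2.

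Epo, the hormone that drives red cell production and one of the best known HIF-2 targets, was not measurable. Its probeset (A_51_P143659) was not well above background on any array and read 5.86 to 5.98 in Con, 5.86 to 6.08 in MS2 and 5.86 to 6.04 in MS5. All values lie at the floor of the arrays, so no ratio is given.

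Ldha, the lactate dehydrogenase subunit that turns pyruvate into lactate, was measured by 3 probesets whose differences from Con did not share a sign and were all within the spread. The lead probeset (A_55_P2012984) read 17.26, 17.07, 17.09, 17.25 and 17.04 in Con, 17.19, 17.21, 16.71, 17.03 and 17.11 in MS2, and 16.99, 17.18, 17.11, 17.02 and 16.93 in MS5. MS2 replicate 4 was the lowest array, and the other arrays overlapped. The difference was -0.09 in MS2 (-0.28 to 0.09) and -0.10 in MS5 (-0.28 to 0.09), and without MS2 replicate 4 that of MS2 was -0.01 (-0.15 to 0.13). With all 3 arrays left out, the MS5 difference was -0.13 (-0.26 to -0.01, limma adjusted p = 0.727). The other 2 probesets are shown because their differences from Con had opposite signs, with intervals that include 0. Like the lead probeset, both lie in a stretch open in at least 1 reading frame, as do probes of Egln3 and Pdk1. That alone does not show that a probe is coding. These 2 Ldha probesets match chr7:54103010-54103069 and chr7:54107294-54107353 of mm9 on the plus strand, per the file.
Ldha A_55_P2141876: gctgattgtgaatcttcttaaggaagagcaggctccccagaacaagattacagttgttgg
Ldha A_55_P2141878: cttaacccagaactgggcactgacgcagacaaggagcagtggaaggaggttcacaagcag
A_55_P2141876 was 0.11 above Con in MS2 (-0.12 to 0.34) and 0.15 in MS5 (-0.08 to 0.38). A_55_P2141878 was -0.02 in MS2 and -0.03 in MS5, with intervals from -0.20 to 0.16 and from -0.21 to 0.15.

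Pgk1, the glycolytic enzyme phosphoglycerate kinase, was flat. It read 15.46, 15.62, 15.71, 15.45 and 15.56 in Con, 15.66, 15.59, 15.64, 15.42 and 15.65 in MS2, and 15.62, 15.51, 15.63, 15.56 and 15.43 in MS5. The groups overlapped completely, and the differences were 0.03 in MS2 (-0.10 to 0.17) and -0.01 in MS5 (-0.14 to 0.12). Its only probeset (A_65_P03442) carries the RefSeq identifier of Pgk1 but is placed by the file at chr3:57906830-57906894 of mm9, whereas RefSeq has the gene on chromosome X, so signal from a copy of the gene elsewhere cannot be told apart from it.

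Pdk1 encodes a kinase that inhibits pyruvate dehydrogenase, the mitochondrial enzyme that turns pyruvate into acetyl-CoA. Its probeset (A_51_P406429) read 10.06, 9.92, 9.93, 9.93 and 9.79 in Con, 10.07, 10.03, 9.69, 9.62 and 9.95 in MS2, and 9.74, 9.85, 9.97, 9.97 and 9.79 in MS5. MS2 replicates 4 and 5, both among the 3 arrays named above, were the lowest. The difference was -0.06 in MS2 (-0.24 to 0.13) and -0.06 in MS5 (-0.25 to 0.12), and without the 3 arrays it was 0.09 in MS2 (-0.06 to 0.24).

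Bnip3, which helps remove mitochondria by autophagy, was close to Con in both groups. At the lead probeset (A_55_P2091473) it read 14.57, 14.39, 14.53, 14.42 and 14.32 in Con, 14.51, 14.52, 14.52, 14.36 and 14.56 in MS2, and 14.34, 14.45, 14.50, 14.52 and 14.32 in MS5. Ranges coincided, with differences of 0.05 in MS2 (-0.08 to 0.17) and -0.02 in MS5 (-0.15 to 0.10). A_55_P2091472 was the other member probeset with an unadjusted p under 0.05: it was -0.15 in MS5 against MS2 (-0.29 to -0.01, limma unadjusted p = 0.0391, adjusted p = 1.00, two-sided exact permutation p = 0.0794). The lead probeset gave -0.07 (-0.19 to 0.05) and the third, A_66_P120736, -0.02 (-0.16 to 0.11) in that comparison.

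Between the doses, the 9 lead probesets differed by -0.07 (Bnip3) to 0.12 (Hif1a) in MS5 against MS2, and each 95% interval included 0 and lay inside 1.5-fold.

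Beyond the members, 74 further genes of the pathway were examined in 6 lists, of which 72 were well above background on all arrays. For MS5 against Con, 5 had higher and 1 lower values at an unadjusted limma p under 0.05, or 6 of 74 beside 3.9% of all probesets. For MS2 the counts were 1 and 1 beside 4.17%, and for both doses together 4 and 3 beside 4.13%. None passed adjustment in any comparison. The shares over all probesets cover an unlike set, since only 36281 of those 55681 were above background on all arrays. The median difference over the 74 genes was 0.00 for both doses together, -0.01 for MS2 and 0.00 for MS5, and 37 genes were above and 37 below Con with both doses together.

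Of 15 genes of oxygen sensing and HIF partnership, 12 were above and 3 below Con with both doses together. Of those, 3 above and 1 below had an unadjusted limma p under 0.05, beside 4.13% of all probesets. Arnt, the partner with which HIF alpha subunits bind DNA, read 10.66 to 10.85 in Con and 10.29 to 10.71 in MS2, a difference of -0.22 (-0.38 to -0.06, limma unadjusted p = 0.00929, adjusted p = 0.970, two-sided exact permutation p = 0.0317). It kept an unadjusted p under 0.05 whichever of the 10 MS2 and Con arrays was left out, and without MS2 replicate 4, the lowest array, it was -0.15 (-0.27 to -0.03). In MS5 the difference was -0.12 (-0.27 to 0.04), and without all 3 arrays -0.13 (-0.254 to -0.002, limma adjusted p = 0.739). The other Arnt probeset, A_55_P2100899, gave -0.17 in MS2 (-0.36 to 0.01) and -0.16 in MS5 (-0.34 to 0.03, limma unadjusted p = 0.0886). There all MS5 arrays were below all Con arrays, beside 0.828% of all probesets that did not overlap in either direction. Crebbp, a coactivator of HIF, was 0.24 above Con in MS2 (0.01 to 0.47) and 0.23 in MS5 (0.00 to 0.46), and 0.20 in MS2 without replicate 4 (-0.04 to 0.44). Without all 3 arrays Crebbp was 0.27 above Con in MS2 (0.02 to 0.52, limma adjusted p = 0.800) and 0.25 in MS5 (0.02 to 0.48, limma adjusted p = 0.710). On all arrays its two-sided exact permutation p was 0.0873 in MS2 and 0.135 in MS5. With 1 array left out at a time, Crebbp had an unadjusted limma p under 0.05 in 5 of 10 MS2 fits and 6 of 10 MS5 fits. Cited2, which competes with HIF-1 for such coactivators, was 0.35 above Con with both doses together (0.02 to 0.67, limma unadjusted p = 0.0380, adjusted p = 0.988, two-sided exact permutation p = 0.0460), and MS2 replicate 4 had the highest value, 11.99. Without that array it was 0.26 with both doses together (0.02 to 0.51) and 0.19 in MS2 (-0.10 to 0.48). Without all 3 arrays it was 0.34 with both doses together (0.12 to 0.56, limma adjusted p = 0.837) and 0.32 in MS2 (0.05 to 0.59, limma adjusted p = 0.800). The other Cited2 probeset, A_55_P2116621, gave 0.24 with both doses together on all arrays (0.03 to 0.46, limma adjusted p = 0.988). Leaving out 1 array at a time, Cited2 had an unadjusted p under 0.05 in 7 of 15 fits. Hif3a was 0.34 above Con with both doses together (0.03 to 0.66) at its lead probeset, with an unadjusted p under 0.05 in 7 of 15 such fits, whereas its other 2 probesets gave 0.06 and 0.02. Egln1 and Vhl, the main hydroxylase and the ubiquitin ligase component, differed by 0.09 (-0.08 to 0.25) and -0.07 (-0.17 to 0.03).

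The lists for glycolysis (17 genes) and for mitochondria and growth restraint (7 genes) contained no gene with an unadjusted p under 0.05 in any comparison with Con. Slc2a1, the glucose transporter of the blood-brain barrier, was 0.07 above Con with both doses together (-0.05 to 0.20). Hk2, a hexokinase, had the lowest value of its list at -0.38 (-0.86 to 0.09). Ddit4, an inhibitor of growth signalling induced by both hypoxia and stress hormones, was 0.20 above Con (-0.03 to 0.42).

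Among 14 secreted and vascular genes, 8 were above and 6 below Con in MS5. Of those above, 2 had an unadjusted limma p under 0.05, beside 3.9% of all probesets. Edn1, the vasoconstrictor endothelin-1, read 7.50, 7.14, 7.49, 7.50 and 7.48 in Con and 7.65, 7.67, 7.51, 7.87 and 7.61 in MS5. All MS5 arrays were above all Con arrays, but the lowest MS5 value, 7.51, was close to the highest Con value, 7.50. Con replicate 16, at 7.14, lay far below the other Con arrays. Such a lack of overlap was seen for 1 of the 74 lead probesets, near the 0.828% of all probesets in either direction. With 1 array left out at a time the difference ran from 0.17 to 0.28, with an unadjusted limma p under 0.05 in 10 of 10 fits. The difference was 0.24 (0.07 to 0.41, limma unadjusted p = 0.00982, adjusted p = 1.00, two-sided exact permutation p = 0.00794, the smallest these arrays allow). It was -0.06 in MS2 (-0.23 to 0.12), and MS5 exceeded MS2 by 0.30 (0.12 to 0.47, limma unadjusted p = 0.00237, adjusted p = 1.00, two-sided exact permutation p = 0.0159). Among markers of endothelium, the source of Edn1 and Kdr in brain vessels, 2 of 8 had lower and none higher values in MS5 at an unadjusted limma p under 0.05, beside 3.9% of all probesets. The summed level of the 8 markers was 14.71 to 14.92 in Con and 14.70 to 14.87 in MS5. Their part in the Edn1 and Kdr values was not tested. Kdr, a Vegfa receptor, was 0.23 above Con in MS5 (0.00 to 0.46) at its lead probeset, with an unadjusted p under 0.05 in 3 of 10 fits that leave out 1 array, and -0.10 at the other. Pdgfb, a vessel growth factor, was -0.09 with both doses together (-0.18 to -0.01) at its lead probeset, with an unadjusted p under 0.05 in 8 of 15 such fits, and 0.00 at the other. Among the 5 receptors of erythropoietin and adrenomedullin, none had an unadjusted p under 0.05.

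In the list of pH, iron, matrix and chromatin targets (16 genes), 4 were above and 12 below Con in MS5. Ankrd37, a HIF-1 target, had the smallest unadjusted p of all 74 genes for MS5 against Con. It read 9.94, 9.89, 10.01, 9.80 and 10.39 in Con, 10.16, 10.06, 10.59, 10.42 and 10.16 in MS2, and 10.78, 10.36, 10.58, 10.29 and 10.30 in MS5. Every treated array exceeded 4 of the 5 Con arrays, and Con replicate 19 lay among them. The difference was 0.45 in MS5 (0.18 to 0.73, a ratio of 1.37, limma unadjusted p = 0.00333, adjusted p = 1.00, two-sided exact permutation p = 0.0317), 0.27 in MS2 (-0.01 to 0.55) and 0.36 with both doses together (0.12 to 0.60, exact permutation p = 0.0130). Leaving out any one array, the difference with both doses together stayed between 0.31 and 0.46. In MS2 it was 0.12 without all 3 arrays (-0.17 to 0.41). Car12, a carbonic anhydrase, was -0.79 in MS5 (-1.35 to -0.23, limma unadjusted p = 0.00924, adjusted p = 1.00, two-sided exact permutation p = 0.0238), with 12.33, 11.86, 12.89, 12.23 and 11.74 in MS5 against 12.80 to 13.23 in Con. The lowest MS5 arrays for Car12, replicates 14 and 9, were those with the lowest choroid plexus sums. The lowest Car12 value of all arrays, 11.58, was on MS2 replicate 4, where that sum was 18.16. In MS5, 11 of 12 choroid plexus markers were lower at an unadjusted limma p under 0.05, beside 3.9% of all probesets. Their part in the Car12 difference was not tested. In MS2 the Car12 difference was -0.37 (-0.93 to 0.19), and -0.11 without replicate 4 (-0.52 to 0.31). Without MS5 replicate 9 the Car12 difference in MS5 was -0.70 (-1.31 to -0.10). Car9, its relative and a classical HIF-1 target, was -0.47 with both doses together (-1.04 to 0.11).

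**Figure D4:**
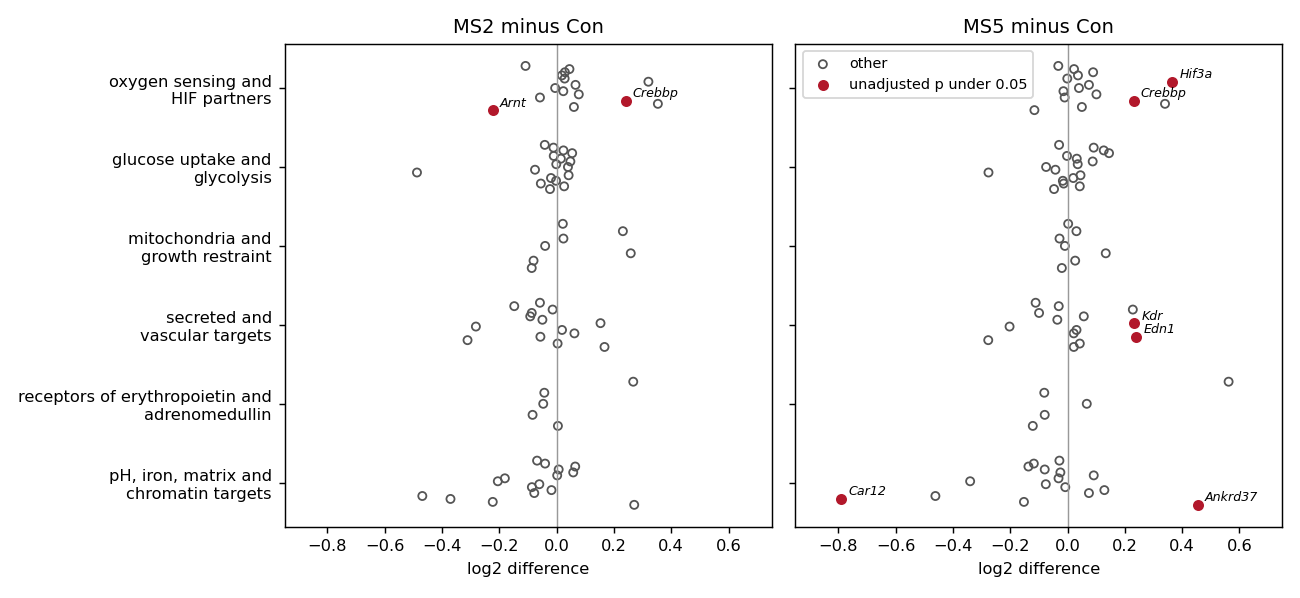
Each point is 1 of 74 further pathway genes in 6 lists, placed by its log2 difference from Con in MS2 (left) and MS5 (right), with red points at an unadjusted limma p under 0.05. Points lie on both sides of 0 in every list, and no gene passed adjustment.

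The microRNA miR-210 is the one most often tied to HIF, which induces it under low oxygen. Its mature forms are shown as RefSeq gives them on GRCm38.p6, with the seed, bases 2 to 8, in capitals; they lie at chr7:141221407-141221428 and chr7:141221445-141221466 on the minus strand.
mmu-miR-210-3p: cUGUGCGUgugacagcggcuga
mmu-miR-210-5p: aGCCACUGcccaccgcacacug
The seeds differ, so each form pairs with its own set of transcripts. The probe set on the 9 miR arrays, 3 per group, names no arm.

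miR-210 had lower values in treated pups than in controls. Log2 levels were 8.67, 8.28 and 8.67 in Con, 7.96, 8.18 and 7.60 in MS2, and 7.87, 7.99 and 8.41 in MS5. All MS2 arrays were below all Con arrays, as in 15.8% of 1412 mouse probe sets in either direction, and 1 MS5 array overlapped Con. The MS2 difference was -0.63 (-1.05 to -0.21, limma unadjusted p = 0.00785, adjusted p = 0.166, two-sided exact permutation p = 0.1, the smallest that 3 against 3 allows). In MS5 it was -0.45 (-0.87 to -0.03, limma unadjusted p = 0.0375, adjusted p = 0.570, two-sided exact permutation p = 0.2), and for both doses together -0.54 (-0.91 to -0.18, limma unadjusted p = 0.00820, adjusted p = 0.206, two-sided exact permutation p = 0.0476). An unadjusted p under 0.05 was common on these arrays, at 13.2% of probe sets for MS2, 8.5% for MS5 and 11.9% for both together, and adjusted calls were 1.13%, 0% and 0.354%. The animal of MS2 replicate 4 was also on the miR arrays, with the highest MS2 value. Without it the MS2 difference was -0.76 (-1.19 to -0.34, limma adjusted p = 0.0420), where 6.73% of probe sets were called. Without MS5 replicate 9 as well, both doses together gave -0.69 (-0.98 to -0.40, limma adjusted p = 0.0243, with 5.10% of probe sets called). In the same fit the MS5 difference was -0.61 (-0.96 to -0.26, limma adjusted p = 0.119, with 1.06% of probe sets called). The arrays left out held the highest MS2 value and the only MS5 value within the Con range. Fewer than 3 arrays then remained in each treated group. The miR-210 hairpin probe set was -0.23 in MS2 (-0.44 to -0.02, limma adjusted p = 0.311) and -0.03 in MS5 (-0.24 to 0.17).

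**Figure D5:**
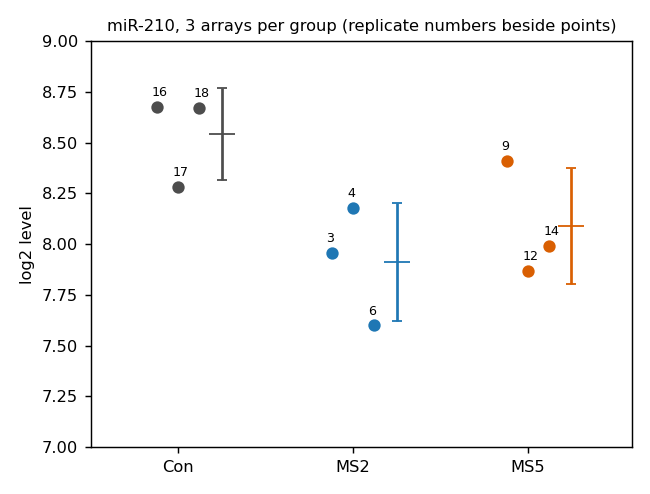
Points are the log2 levels of miR-210 on 3 miR arrays per group with replicate numbers beside them, and bars are the group mean ± SD. The MS2 arrays, 7.60 to 8.18, lie below the Con arrays, 8.28 to 8.67, and MS5 replicate 9 at 8.41 lies within the Con range.

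Across the 15 arrays each member was set beside 15661 other genes measured by curated probesets above background, and the gene with the highest Pearson r is given as a description. These were Pdk1 with 9430016H08Rik (0.96), Ldha with Gdf10 (0.94), Vegfa with Zfp187 (0.90), Egln3 with Wnt5b (0.89), Hif1a with Anubl1 (0.89), Bnip3 with Rab3a (0.88), Epas1 with Gmppb (0.87), Pgk1 with Ctage5 (0.85) and Adm with Mak (0.81). No member was the closest gene of another member. The points share arrays, scaling and the animals named above.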

How the data were processed

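Scanner files of the mRNA arrays were deposited as spot intensity from Agilent Feature Extraction 10.7.1.1. In the series table, per the study's methods, the authors give log2 values after normexp background adjustment and quantile normalization. The same steps on the scanner files, at an offset of 50, matched them within 5.0e-09. For the miR arrays the deposited log2 values were used, with RMA named in the submitters' notes; the log base is not given in the sources used here and was taken as 2. Each of the 15 mRNA and 9 miR arrays was assigned to its group by the labels. All 3 groups entered 1 fit (lmFit and eBayes of limma 3.58.1, R 4.3.3) on 55681 probesets or 1412 mouse miR probe sets, with Benjamini-Hochberg adjustment and 95% intervals. The fit was tested on simulated data. Exact permutation tests were two-sided. A lead probeset has the highest mean among NM_ identifiers. Pathway genes given values had an unadjusted p under 0.05 in a comparison with Con; Egln1, Vhl, Slc2a1, Hk2, Ddit4 and Car9 were chosen after their values were seen. Probe coordinates are those of the files (mm9). The members and lists were chosen with earlier results of these data known. Markers of astrocytes, oligodendrocytes, endothelium, blood and meninges had 0 to 2 genes per list with an unadjusted p under 0.05 in any comparison with Con, beside 3.9% to 4.17% of all probesets. The number of arrays limits the precision, and each animal gave 1 array. Alternatives were averaged spots, an offset of 0, 75th percentile scaling, array weights, slide as a block or alone, a filter on dim probesets, only the groups compared, the mean over a gene's probesets and each array left out; for miR-210, median centring, weights and a level filter. Leaving out the 3 arrays that stand apart was chosen after seeing the data.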

Additional observations from a re-analysis of the deposited data

Results flagged for a closer look

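In 9 of 84 groups of 5 arrays, over member probesets and the named pathway genes, 1 array lay far from the other 4 by Dixon's criterion, where chance gives about 1 in 20. MS2 replicate 5, the dim array, was low for Vegfa (A_52_P638895, 11.76 against 12.02 to 12.10), Bnip3 (A_55_P2091473, 14.36 against 14.51 to 14.56) and Pgk1 (15.42 against 15.59 to 15.66). MS2 replicate 4, low in hippocampal markers, was low for Ldha (A_55_P2141878, 13.78 against 14.17 to 14.25) and Car12 (11.58 against 12.71 to 13.12). Con replicate 15 was high for Vegfa at A_52_P249424 (8.71 against 8.46 to 8.53). Con replicate 16 was low for Arnt (10.66 against 10.81 to 10.85) and Edn1 (7.14 against 7.48 to 7.50). MS5 replicate 8 was high for Epo (6.04, with the lowest at 5.86), which is below background on all arrays.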

How the results depend on the processing

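No paired analysis was possible because the replicate numbers are animal numbers that the groups do not share. Of 792 recomputed log2 differences of the 9 measured genes, 778 stayed within 1 SD between arrays, 62 changed sign and none passed adjustment by limma; 12 had an unadjusted p under 0.05, for Hif1a, Adm, Egln3 or Ldha, as described above. Member counts at an unadjusted p under 0.05 were 1 with array weights for MS2 and for both doses (Hif1a), 1 without the 3 arrays for MS2 (Hif1a), MS5 and MS5 against MS2 (Ldha), and 0 to 1 with single arrays left out in each of the 4 comparisons. The arrays concerned were Con replicates 15 (Egln3) and 19 (Adm), MS2 replicate 4 (Hif1a) and MS5 replicate 14 (Adm). Of all probesets, 7.49% (MS2), 6.42% (MS5) and 6.15% (both) passed that threshold with array weights, and 6.17%, 6.69% and 5.93% without the 3 arrays (7.19% for MS5 against MS2), more than on all arrays. Pathway genes past it with higher values numbered 3 in MS2 under array weights, 2 in MS2 and 3 in MS5 with slide as a block, and 2 in MS2 without the 3 arrays; those with lower values were 3 in MS2 and 3 in MS5 under array weights, and 2 in MS2, 7 in MS5 and 5 with both doses without the 3 arrays. With single arrays left out, the counts higher were 0 to 2 (MS2), 2 to 6 (MS5) and 1 to 5 (both), and lower 1 to 3, 1 to 4 and 1 to 5; Con replicate 19 gave 1 higher and 5 lower with both doses. Without the arrays that stand apart, miR-210 passed adjustment at -0.76 in MS2 and -0.69 with both doses, but not in MS5 (limma adjusted p = 0.119). With single arrays left out it ran from -0.76 to -0.47 in MS2, -0.61 to -0.34 in MS5 and -0.67 to -0.46 with both. Signal near background set the limit for Epo.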
